A study of Homo sapiens with 12 samples.

Results

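The alpha-arrestins and the MLX family of glucose-sensing transcription factors were followed as 8 genes among the 23705 of the deposited count table: TXNIP, ARRDC1, ARRDC2, ARRDC3 and ARRDC4, and MLX, MLXIP and MLXIPL. They were taken as named genes, by NCBI gene identifier, with no threshold on a measured value, although earlier results of these data, the lower TXNIP among them, were known when they were chosen. The question was whether the lower TXNIP mRNA of rosiglitazone-treated cells is shared by the paralogs of TXNIP or by the factors that regulate it. A375, an established line derived from a human melanoma, was grown in medium with fetal bovine serum and received for 24 h the solvent alone (DMSO, called vehicle), 5 μM rosiglitazone (RGZ, a PPARγ agonist), 2 μM T0070907 (T007, a PPARγ antagonist) or RGZ and T007 together. Polyadenylated RNA was sequenced from 3 experiments, each of which gave 1 library per condition, so that 12 libraries fall into 4 groups of 3, and technical repeats within an experiment had been pooled before sequencing. The number from 1 to 3 in each library's title was read as its experiment, although the labels do not spell this out, and every paired value rests on that reading. All 4 groups are the same line, so the libraries are repeats of 1 cell line and not of separate tumours.

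The alpha-arrestins are adaptor proteins that share the arrestin fold and bring ubiquitin ligases of the NEDD4 family to membrane proteins destined for internalization. TXNIP, the best known of them, also binds and inhibits thioredoxin and restrains glucose uptake by acting on glucose transporters, and ARRDC4 is its closest paralog. MLX is the shared partner of MondoA (encoded by MLXIP) and ChREBP (encoded by MLXIPL), basic helix-loop-helix factors that respond to glucose-6-phosphate and bind paired E-boxes called carbohydrate response elements, and TXNIP and ARRDC4 are described targets of the MondoA and MLX dimer.

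The sequences upstream of 4 members are printed here because they show where the E-box letters that MLX dimers are known for stand relative to the start of each gene. Each is the 250 bases before a RefSeq start site of GRCh38.p14, 5′ to 3′ on the strand of the gene, with E-box letters (CACGTG, or its variant CACGAG) in capitals. The TXNIP stretch is chr1:145996580-145996829 on the minus strand, that of ARRDC4 chr15:97960453-97960702 on the plus strand, that of MLX chr17:42566850-42567099 on the plus strand, and that of ARRDC2, which holds neither, chr19:18000874-18001123 on the plus strand.
TXNIP: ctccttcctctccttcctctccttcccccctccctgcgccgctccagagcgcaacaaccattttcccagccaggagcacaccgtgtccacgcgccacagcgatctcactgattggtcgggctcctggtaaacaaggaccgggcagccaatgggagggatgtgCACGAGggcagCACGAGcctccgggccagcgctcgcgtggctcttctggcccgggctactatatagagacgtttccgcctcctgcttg
ARRDC4: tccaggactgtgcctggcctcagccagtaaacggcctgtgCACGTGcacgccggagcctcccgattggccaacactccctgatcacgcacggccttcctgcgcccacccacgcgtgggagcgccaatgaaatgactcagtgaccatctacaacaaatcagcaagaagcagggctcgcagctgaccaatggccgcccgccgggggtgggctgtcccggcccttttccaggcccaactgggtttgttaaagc
MLX: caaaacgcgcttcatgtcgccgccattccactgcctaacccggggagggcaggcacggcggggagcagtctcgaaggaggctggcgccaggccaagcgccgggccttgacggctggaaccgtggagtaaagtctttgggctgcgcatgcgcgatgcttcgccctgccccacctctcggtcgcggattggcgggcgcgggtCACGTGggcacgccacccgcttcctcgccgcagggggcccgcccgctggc
ARRDC2: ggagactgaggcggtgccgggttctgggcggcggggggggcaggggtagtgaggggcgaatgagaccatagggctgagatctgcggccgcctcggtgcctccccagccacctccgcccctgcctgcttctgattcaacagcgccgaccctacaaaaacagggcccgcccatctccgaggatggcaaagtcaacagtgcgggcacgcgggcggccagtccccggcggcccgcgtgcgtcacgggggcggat

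Windows of the 250 bases before each start were searched on both strands, and the 8 members have 11 such windows. CACGTG was found in 6.34% of the 35116 windows of all genes, and among the members in ARRDC4 (bases -210 to -205) and MLX (bases -50 to -45). CACGAG stood in 5.58% of all windows and, among the members, only in TXNIP, where 2 copies lie 5 bases apart. A pair of that spacing, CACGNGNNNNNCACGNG, which contains 2 E-box variants, was found in 16 of the 35116 windows (0.0456%), and the TXNIP window is among them (bases -88 to -72). The letters AGGNCA repeated in the same direction with 1 base between them, a direct repeat of the kind bound by PPARγ and RXR dimers, were in 0.268% of all windows and in 0 of the 11 windows of the members. CCAAT, found in 32.0% of all windows, was present for 7 members. These matches say which letters stand in the windows and nothing of what was bound there in A375 cells.

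In GRCh38 with GENCODE annotation, TXNIP lies at chr1:145992435-145996600 on the minus strand and ARRDC4 at chr15:97960698-97973838 on the plus strand, and neither overlaps another annotated gene. MLXIP, at chr12:122078722-122147347 on the plus strand, also stands free, and MLXIPL, at chr7:73593194-73624543 on the minus strand, shares no exonic base with another gene. ARRDC1 (chr9:137605654-137615360, plus) shares 29 of its 3821 exonic bases with the opposite-strand ARRDC1-AS1 and 183 with AL590627.2 on its own strand. ARRDC2 (chr19:18001132-18014102, plus) shares 442 of 4637 exonic bases with AC020904.3, ARRDC3 (chr5:91368724-91383359, minus) shares 145 of 4934 with ARRDC3-AS1, and MLX (chr17:42567068-42573239, plus) shares 770 of 4259 with PSMC3IP, all on the opposite strand. Since no source used here says whether counting used strand, the reads of these overlaps could belong to either gene. ARRDC1-AS1 itself was at 22.5 ± 2.23 CPM in vehicle and 20.8 ± 3.44 CPM with RGZ (SD, n = 3 each), and ARRDC3-AS1 had 2 to 8 counts in a library.

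The libraries held 8319455 to 11375227 counts, and 3 counts, taken as the limit of detection, correspond to 0.258 to 0.371 CPM (counts divided by the library total and expressed per 1e6, here with totals scaled by TMM factors). Genes that RGZ is known to induce through PPARγ were all higher with RGZ than with vehicle: FABP4, ANGPTL4, PDK4 and CPT1A passed the test, 4 of 4, with CPT1A at 62.4 ± 6.47 CPM in vehicle and 107 ± 5.66 CPM with RGZ. Of 7 melanocytic markers, SOX10 (311 ± 109 CPM in vehicle), MITF (45.9 ± 12.2 CPM) and S100B (25.7 ± 11.8 CPM) were present, PMEL had 3 to 13 counts in a library, and the pigment genes MLANA, TYR and DCT had 0 to 6, 0 and 0 to 1 counts. Markers of blood, endothelial, epithelial and fat cells (PTPRC, CD3E, PECAM1, CDH5, EPCAM, ADIPOQ and PLIN1) stayed at 0 to 21 counts in every library.

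TXNIP mRNA was lower in every library with RGZ than in the library without it from the same experiment. In vehicle its level was 23.2, 21.9 and 15.8 CPM in experiments 1, 2 and 3, and with RGZ it was 11.5, 13.1 and 7.82 CPM. With T007 it was 26.9, 25.3 and 20.4 CPM, and with RGZ and T007 it was 15.8, 16.7 and 10.9 CPM. Experiment 3 gave the lowest value in all 4 conditions, and the RGZ libraries did not overlap the vehicle libraries. The group means were 20.3 ± 3.95 in vehicle, 10.8 ± 2.73 with RGZ, 24.2 ± 3.39 with T007 and 14.5 ± 3.11 CPM with both (SD, n = 3 each), on 77 to 283 counts per library. In RNA from whole cultures, fewer cells with a transcript and less of it per cell cannot be told apart.

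ARRDC4, which like TXNIP lowers glucose uptake, had the lowest level of the 5 alpha-arrestins followed, on 12 to 42 counts per library. It stood at 3.63, 3.21 and 3.06 CPM in vehicle and at 2.81, 1.37 and 3.05 CPM with RGZ. With T007 it was at 2.43, 2.69 and 3.62 CPM, and with RGZ and T007 at 2.10, 1.79 and 2.89 CPM. The RGZ libraries were below the vehicle libraries, but in experiment 3 by a ratio of only 0.995, and that in experiment 2 (0.426) rests on 12 counts.

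ARRDC3, an adaptor for integrin β4, differed little between conditions. Its level was 18.7, 18.6 and 21.1 CPM in vehicle and 15.9, 17.5 and 19.1 CPM with RGZ. It was 16.4, 20.9 and 20.6 CPM with T007 and 15.4, 19.2 and 18.5 CPM with both drugs. The groups overlapped, although within each experiment the library with RGZ was the lower of its pair.

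ARRDC2 went the opposite way to TXNIP. Its level was 36.2, 43.7 and 34.8 CPM in vehicle and 40.9, 55.4 and 46.6 CPM with RGZ, so each RGZ library exceeded its own vehicle library while the groups overlapped. With T007 it was 32.6, 33.7 and 31.3 CPM, below all 3 vehicle libraries, and with RGZ and T007 it was 38.4, 40.0 and 40.9 CPM, above all 3 libraries with T007 alone.

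ARRDC1, which recruits ESCRT proteins to the plasma membrane and buds small vesicles from it, showed no shift with RGZ. It was at 22.8, 34.7 and 26.0 CPM in vehicle, 24.3, 32.9 and 25.1 CPM with RGZ, 28.3, 36.1 and 26.4 CPM with T007 and 29.0, 34.8 and 27.8 CPM with both. Experiment 2 gave the highest value in each condition, and the 4 groups overlapped.

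MLX had the highest level of the members, on 846 to 1274 counts per library. It stood at 110, 101 and 99.9 CPM in vehicle, 112, 110 and 114 CPM with RGZ, 115, 101 and 110 CPM with T007 and 105, 97.7 and 111 CPM with both drugs. The 3 RGZ libraries lay just above the 3 vehicle libraries, with ratios of 1.02 to 1.14 within experiments, whereas RGZ with T007 and T007 alone overlapped.

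MLXIP, which encodes MondoA, was at 41.1, 30.5 and 34.0 CPM in vehicle and at 40.1, 28.5 and 25.5 CPM with RGZ, which overlap. With T007 it was at 46.1, 37.9 and 32.5 CPM, and with RGZ and T007 at 26.1, 29.2 and 24.3 CPM, below every library with vehicle or with T007 alone. MLXIPL, which encodes ChREBP, had 2, 4 and 4 counts in vehicle, 1, 4 and 3 with RGZ, 2, 5 and 9 with T007 and 2, 4 and 3 with both, near the limit of detection, so it did not pass the filter on low counts and no change in it was detectable at this depth. The other 7 members were tested.

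**Figure D1:**
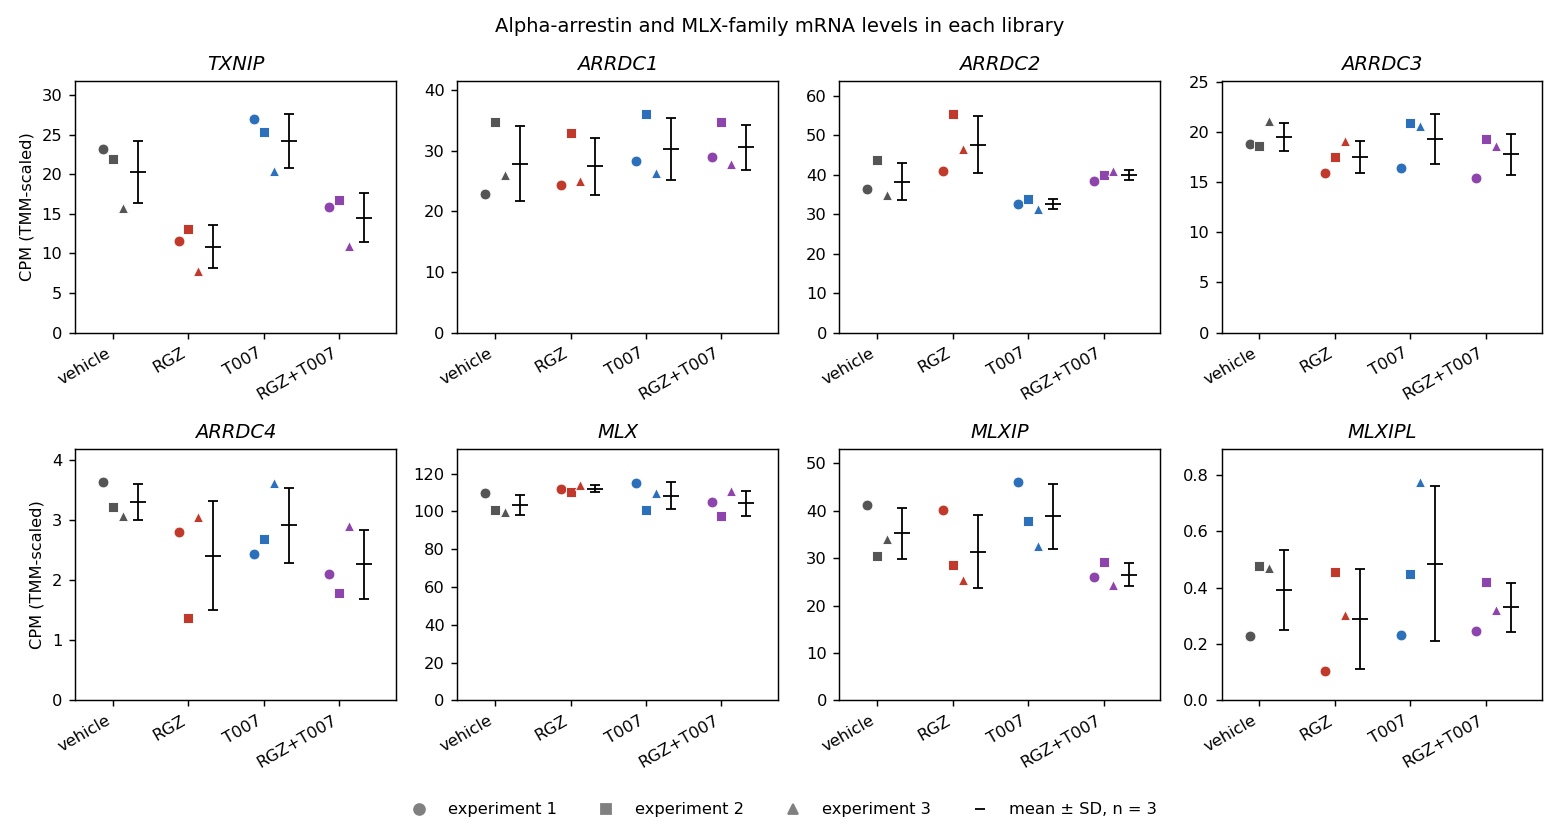
TMM-scaled CPM of the 8 members in each library (y axis, from 0) for the 4 conditions (x axis), with the experiment given by the marker shape and the mean ± SD of 3 libraries as a black bar. TXNIP lies at 7.82 to 13.1 CPM with RGZ and at 15.8 to 23.2 CPM in vehicle, while the 4 groups of ARRDC1 overlap.

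Levels of the members were compared with each other per kilobase of the longest annotated transcript. In vehicle MLX led at 40.0 CPM per kb, followed by ARRDC2 at 10.2, ARRDC1 at 8.75 and TXNIP at 6.93, then ARRDC3 at 4.65 and MLXIP at 4.18, ARRDC4 at 0.811 and MLXIPL at 0.119 CPM per kb. The ranges of ARRDC2 and ARRDC1 overlapped, as did those of ARRDC1 and TXNIP and those of ARRDC3 and MLXIP, so these neighbours have no order beyond their spread. With RGZ the order at both ends was as in vehicle, but TXNIP, at 3.70 CPM per kb, stood beside ARRDC3 (4.18) and MLXIP (3.72), and the ranges of these 3 genes overlapped, so they have no order beyond their spread. With T007 TXNIP was at 8.28 CPM per kb beside ARRDC2 at 8.68, again with overlapping ranges.

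**Figure D2:**
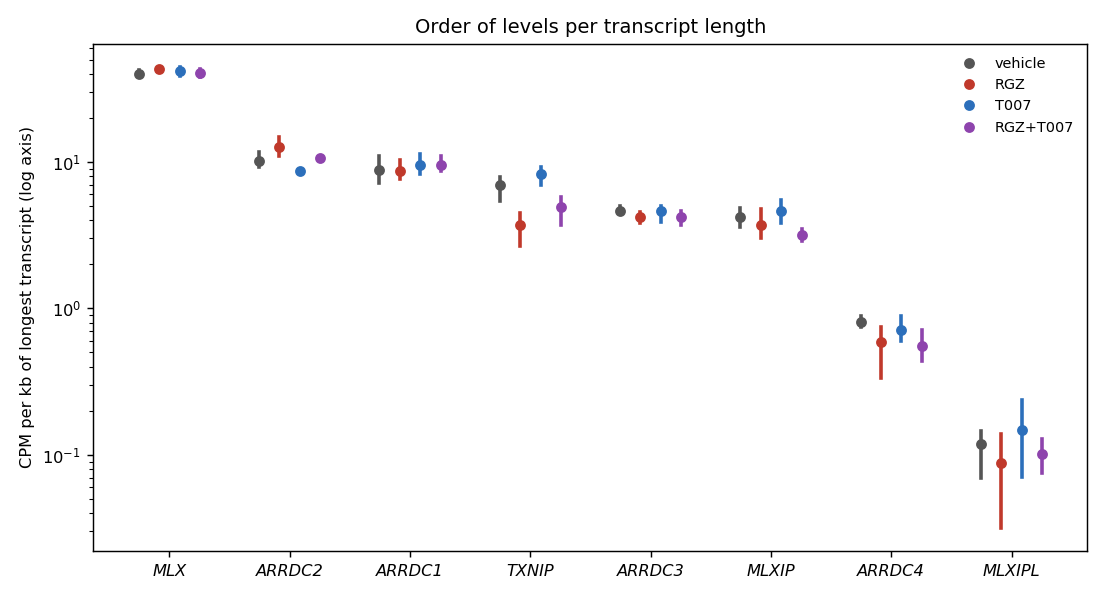
Level per transcript length (CPM per kb of the longest transcript, log axis) of the 8 members, ordered by their level in vehicle, as the mean (point) and the range (line) of 3 libraries per condition. TXNIP moves from 6.93 CPM per kb in vehicle to 3.70 with RGZ, among ARRDC3 and MLXIP, and MLXIPL stays lowest in all 4 conditions.

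The effect of RGZ was tested in each antagonist state and as the average over them, across all 13522 genes that passed the filter, with edgeR's quasi-likelihood test and Benjamini-Hochberg adjustment. Each test was also run with the number in the titles as a replicate block. Calls made with the block depend on that number marking a shared experiment. Averaged over libraries with and without T007, RGZ lowered TXNIP: the log2 fold change was -0.82 (SE 0.16, adjusted p = 0.0187, edgeR), a level 0.565 times that without RGZ, and it was lower in 6 of 6 pairs. This was 1 of 7 members called, where 2.54% of all tested genes were called. With the block, TXNIP (-0.83, SE 0.07, adjusted p = 3.97e-07), ARRDC2 (0.30, SE 0.06, adjusted p = 0.00225) and MLXIP (-0.35, SE 0.08, adjusted p = 0.00401) were called by edgeR, 3 of 7 where 22.6% of all genes were called. Without the block the edgeR adjusted p of ARRDC2 was 0.07 and that of MLXIP 0.142. The call of TXNIP without the block was lost when vehicle 1 (adjusted p = 0.0576, edgeR) or T007 1 (adjusted p = 0.0558, edgeR) was left out.

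RGZ against vehicle gave 0 of 7 members called by edgeR without the block, with 1.24% of all genes called, and 2 of 7 with it, with 9.3% called. At an unadjusted p under 0.05 the unblocked fit had 2 members, and limma-voom called 0 and DESeq2 1, TXNIP. TXNIP had the largest difference among the members, a log2 fold change of -0.91 (SE 0.22, 95% interval -1.39 to -0.42), with an edgeR adjusted p of 0.0875 without and 1.49e-05 with the block. The other member called with the block was ARRDC2 at 0.31 (SE 0.09, adjusted p = 0.0256, edgeR), against 0.32 (SE 0.11, adjusted p = 0.301) without it, or 0.19 without it and without RGZ 2. That call was lost in 4 of the 12 fits that left out a library, those without vehicle 1, vehicle 3, RGZ 2 or RGZ 3, while the blocked call of TXNIP was kept in all 12.

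The remaining members passed neither test, and their intervals set what can be said of them. ARRDC1 was at -0.02 (95% interval -0.41 to 0.37) and ARRDC3 at -0.15 (-0.44 to 0.13, and -0.09 without vehicle 3 or RGZ 1), and both intervals stop short of the TXNIP estimate. The interval of ARRDC4 ran from -1.11 to 0.21 around -0.45, so it holds 0 and also the TXNIP estimate. Without RGZ 2, the library with 12 counts, the ARRDC4 estimate was -0.17, and without RGZ 3 it was -0.65. MLX was at 0.12 (-0.04 to 0.27) and MLXIP at -0.17 (-0.56 to 0.23), with -0.03 without RGZ 3, -0.04 without vehicle 1, -0.10 without RGZ 2, -0.26 without vehicle 2 and -0.38 without RGZ 1. Groups that do not overlap were seen for TXNIP and ARRDC4 (below vehicle) and MLX (above), 3 of 7 members, where 16.8% of all tested genes have such groups.

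In the presence of the antagonist the TXNIP difference was still measured. RGZ and T007 against T007 gave -0.74 for TXNIP (SE 0.22, edgeR adjusted p 0.261 without the block and 2.16e-04 with it, where the estimate was -0.75). MLXIP was at -0.54 (SE 0.18, adjusted p 0.261, edgeR) without the block and -0.53 (SE 0.11, adjusted p 0.00939) with it, and ARRDC2 at 0.29 (adjusted p 0.281 without and 0.0454 with the block, edgeR). That makes 0 of 7 members called in the unblocked fit (3 at an unadjusted p under 0.05, and 0 by DESeq2 and limma-voom) and 3 of 7 in the blocked fit, beside 0.037% and 8.76% of all genes. The blocked call of MLXIP was lost in 3 of 12 fits that left out a library (T007 1, T007 2 or the RGZ and T007 library of experiment 3), and that of ARRDC2 in 9 of 12. ARRDC4 stood at -0.37 (95% interval -1.03 to 0.29), ARRDC3 at -0.12, MLX at -0.05 and ARRDC1 at 0.01. With 1 library left out, ARRDC4 ranged from -0.59 (without the library of both drugs of experiment 3) to -0.18 (without T007 3) and ARRDC3 from -0.22 (without T007 1) to -0.03 (without the library of both drugs of experiment 1). MLX ranged from -0.105 to -0.00683 in the same fits. The groups of TXNIP, MLXIP and ARRDC2 did not overlap, 3 of 7 members beside 18.7% of all genes. FABP4, ANGPTL4, PDK4 and CPT1A, the PPARγ-induced genes checked for RGZ, were also higher with both drugs than with T007 alone. Of these 4, edgeR called 4 higher with the block and 0 without it. CPT1A stood at 36.3 ± 2.99 CPM with T007 and 57.4 ± 9.46 CPM with both drugs. Against RGZ alone, 4 of 4 were called lower with both drugs in either fit, beside 1.24% and 11.4% of all genes.

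A difference in the effect of RGZ between cells with and without T007 passed the adjusted test for 0 of 7 members. The interaction was 0.17 for TXNIP, with a 95% interval of -0.51 to 0.84, or -0.14 to 0.47 with the block. It was -0.38 for MLXIP (95% interval -0.93 to 0.17), or -0.36 with the block, where the interval of -0.68 to -0.03 leaves out 0 (adjusted p = 0.473, edgeR). Leaving out 1 library moved the MLXIP value between -0.51 and -0.16 (without RGZ 1), and between -0.49 and -0.21 with the block. These 0 calls by edgeR hold for either fit, beside 0% of all genes in the unblocked and 0.281% in the blocked fit, and DESeq2 and limma-voom called 0 too. At an unadjusted p under 0.05 there were 0 members in the unblocked fit and 1, MLXIP, in the blocked fit. A change of the TXNIP effect by T007 of up to 0.47 on the log2 scale lies within the blocked interval.

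T007 alone against vehicle called 0 of 7 members by edgeR in either fit, beside 0.0074% of all genes unblocked and 0.91% blocked, and DESeq2 and limma-voom called 0 as well. At an unadjusted p under 0.05 there were 0 members unblocked and 2, TXNIP and ARRDC2, with the block. TXNIP was at 0.25 (95% interval -0.21 to 0.72), higher than in vehicle in 3 of 3 experiments with ratios of 1.16 to 1.30, and it was 0.10 with vehicle 3 left out. With the block its p was 0.0117 and its adjusted p 0.295 (edgeR). ARRDC2 was at -0.23, lower in 3 of 3 experiments and with groups that do not overlap (7.67% of all genes have such groups), and it was -0.13 with vehicle 2 left out. With the block its p was 0.0168 and its adjusted p 0.341 (edgeR). The signs of the T007 differences of TXNIP and ARRDC2 are the reverse of those for RGZ, as values that did not pass the test.

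With T007 added to RGZ the TXNIP estimate was higher in both fits, but it was called only in the fit with the block. Against RGZ alone, cells with both drugs had a TXNIP difference of 0.42 (SE 0.23, adjusted p = 0.455, edgeR) without and 0.43 (SE 0.11, adjusted p = 0.0196) with the block, with ratios of 1.27 to 1.40 in the 3 experiments. Leaving out 1 library took the unblocked estimate from 0.23 (without RGZ 3) to 0.59. That was 1 of 7 members called beside 11.4% of all genes (0 of 7 beside 1.24% without the block, 1 at an unadjusted p under 0.05, and 0 by DESeq2 and limma-voom), and the call was lost without RGZ 1, RGZ 3 or the RGZ and T007 library of experiment 2. ARRDC2 was at -0.26 (adjusted p 0.357 without and 0.062 with the block, edgeR, and -0.14 without RGZ 2), ARRDC1 at 0.16 (0.05 to 0.31 with a library left out) and ARRDC3 at 0.02. Against vehicle, cells with both drugs had TXNIP at -0.49 (adjusted p 0.465 and 0.0983, edgeR, and -0.32 without the library of both drugs of experiment 3), MLXIP at -0.41 (0.459 and 0.103) and ARRDC4 at -0.54 (0.535 and 0.224), and 0 of 7 members were called in either fit (2 at an unadjusted p under 0.05 without the block and 3 with it, and 0 by DESeq2 and limma-voom), as were 0% of all genes. Groups that do not overlap were seen for 0 of 7 members against RGZ, beside 17.7% of all genes, and for ARRDC4 and MLXIP, 2 of 7, against vehicle, beside 12.2%. The comparisons of RGZ with T007 against RGZ, T007 and vehicle share the libraries of both drugs.

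**Figure D3:**
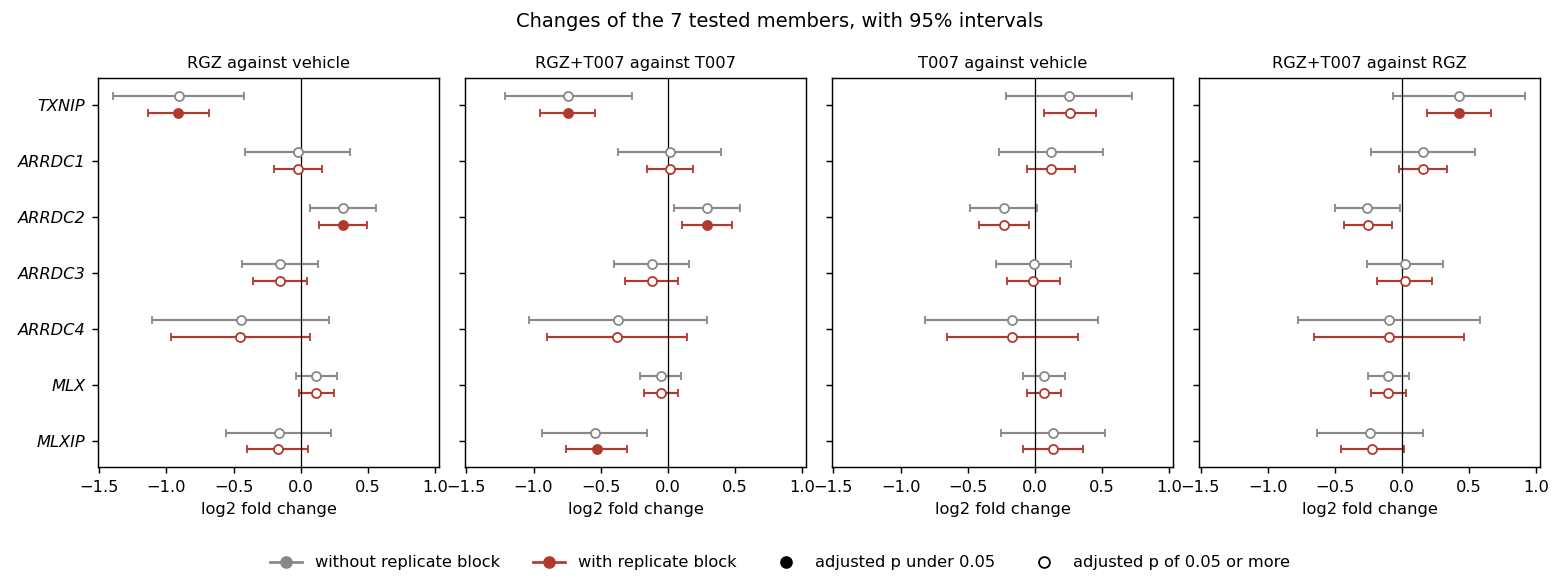
Log2 fold changes (x axis) of the 7 tested members in 4 comparisons, with 95% intervals, fitted without (gray) and with (red) the replicate block, filled where the adjusted p was under 0.05. TXNIP is at -0.91 for RGZ against vehicle and -0.74 for RGZ and T007 against T007, ARRDC2 is on the opposite side of 0, and ARRDC1 is at -0.02 and 0.01.

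The 3 experiments and 2 antagonist states give 6 pairs of libraries with and without RGZ, and an exact two-sided permutation test of the RGZ labels within them can go no lower than p = 0.03125. The test takes the 6 pairs as independent, although each experiment gives 2 of them. The mean difference of log2 CPM was -0.83 for TXNIP (pairs from -0.99 to -0.59), -0.42 for ARRDC4 (-1.11 to -0.01), -0.36 for MLXIP (-0.82 to -0.03) and -0.14 for ARRDC3 (-0.23 to -0.09), each lower in 6 of 6 pairs with an exact p of 0.03125. For ARRDC2 it was 0.30 (0.17 to 0.42), higher in 6 of 6 pairs, with the same exact p. ARRDC1 (0.00, exact p = 0.969) and MLX (0.03, exact p = 0.5) went both ways. With 1 experiment left out, the mean difference of ARRDC4 ran from -0.55 to -0.21. Lower in all 6 pairs were thus 4 of 7 members (57.1%), beside 11.7% of all tested genes, and higher in all 6 pairs 1 of 7, beside 12.9%. The 4 include TXNIP, whose lower level was known when the members were chosen. The 7 exact p values are each for a single gene and are not adjusted.

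**Figure D4:**
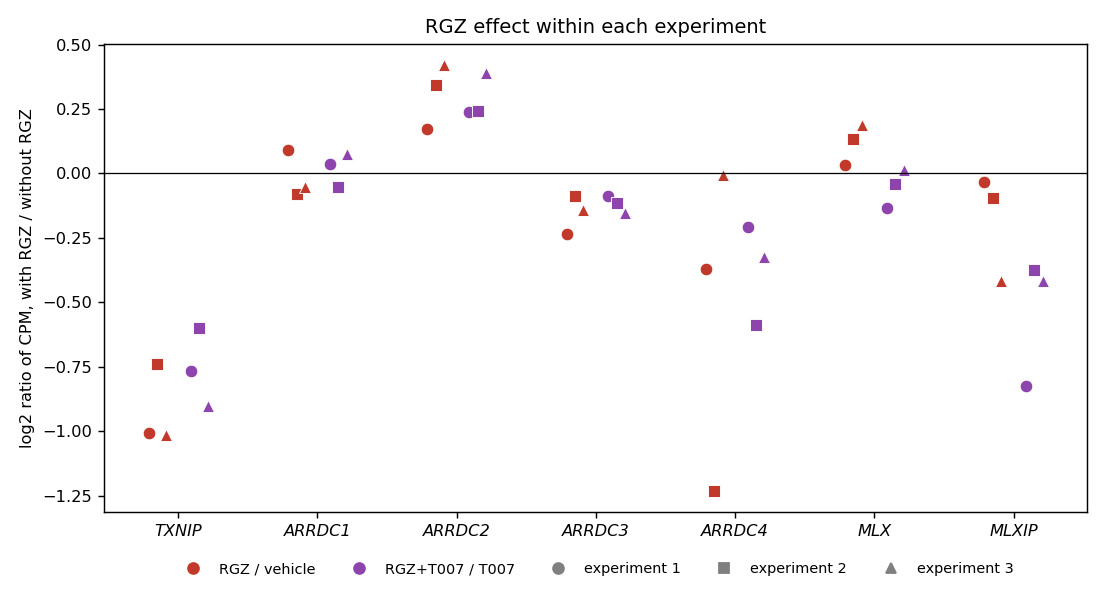
Log2 ratio of CPM with RGZ to CPM without it (y axis) in each experiment, for RGZ over vehicle (red) and RGZ with T007 over T007 (purple), for the 7 tested members. All 6 points of TXNIP lie between -1.01 and -0.60, those of ARRDC2 lie above 0, and those of ARRDC1 and MLX lie on both sides of 0.

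Whether TXNIP moved more than each other member was tested on the ratio of TXNIP to that member within a library. The TXNIP to ARRDC1 ratio was 1.01, 0.630 and 0.606 in vehicle and 0.474, 0.399 and 0.312 with RGZ, and the TXNIP to ARRDC2 ratio was 0.639, 0.501 and 0.453 in vehicle and 0.282, 0.237 and 0.168 with RGZ. On the log2 scale RGZ shifted the ratio to ARRDC1 by -0.83, to ARRDC2 by -1.13, to ARRDC3 by -0.69 and to MLX by -0.86, each in 6 of 6 pairs (exact permutation test, p = 0.03125, 0.0469 after Benjamini-Hochberg adjustment over 6 ratios). The ratio to MLXIP shifted by -0.47, lower in 5 of 6 pairs (exact p = 0.0625, adjusted 0.075), and that to ARRDC4 by -0.41, lower in 5 of 6 pairs (exact p = 0.0938, adjusted 0.0938). Without experiment 2 the shift against ARRDC4 was -0.70, and without experiment 3 it was -0.22. With the 6 pairs counted as independent, TXNIP therefore decreased relative to ARRDC1, ARRDC2, ARRDC3 and MLX. Its difference from ARRDC4 and MLXIP was not past the threshold. For ARRDC4 the ratio ran from 5.15 to 6.81 in vehicle and from 2.57 to 9.58 with RGZ, the last of these in the library where ARRDC4 had 12 counts.

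With each library centred on its experiment, the levels of ARRDC3 (Pearson r = 0.68), MLXIP (0.63) and ARRDC4 (0.51) ran with TXNIP over the 12 libraries. ARRDC1 (0.25) did so less, and MLX (-0.32) and more closely ARRDC2 (-0.87) ran against it. Without that centring r was 0.15 for ARRDC3, 0.65 for MLXIP, 0.15 for ARRDC4, 0.31 for ARRDC1, -0.32 for MLX and -0.64 for ARRDC2, so the values of ARRDC3 and ARRDC4 rest on the centring. Genes were ranked by r where their mean was 5 CPM or more, 10927 in all, a level that ARRDC4 does not reach, and 11.8% of them had a higher r than ARRDC3 and 96.7% a higher r than ARRDC2. The genes with the highest r were NIBAN1 (0.98), LMO7 (0.97), ANK3 (0.97), SHROOM3 (0.96) and ITPRID2 (0.96). NIBAN1 stood at 71.0 CPM in vehicle, 47.5 with RGZ, 86.5 with T007 and 57.3 with both, and SHROOM3, a regulator of apical constriction in epithelia, at 34.4, 18.3, 41.2 and 29.1 CPM. The genes with the lowest r were SEPTIN9 (-0.97), CD9 (-0.97), PHC2 (-0.97), HSPA1B (-0.97) and HSPA5 (-0.97). Without the centring r was 0.59 to 0.92 for the first 5 genes, and for the last 5 it was -0.97, -0.70, -0.97, 0.04 (HSPA1B) and -0.94 in the order named. HSPA1B has a near-identical copy, HSPA1A, so its counts are uncertain. These correlations are descriptions over 12 libraries that share 4 treatments and 3 experiments.

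Among other proteins with the arrestin fold, 5 of 8 were tested for RGZ against vehicle and 0 were called in either edgeR fit (1 at an unadjusted p under 0.05, and 0 by DESeq2 and limma-voom), with a median log2 fold change of 0.01 beside -0.01 over all genes. VPS26B, a retromer subunit, was at 0.13 (adjusted p = 0.546, edgeR), the β-arrestins ARRB1 and ARRB2 were at 0.18 and 0.01, and ARRDC5 and the visual arrestin SAG had 0 counts in every library, which allows up to 0.371 CPM for counting error. ARR3 had 0 to 6 counts.

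Of 9 genes whose products pair with MAX or stand beside MLX in the same network, 8 were tested and 1 was called for RGZ against vehicle in either fit. MYC, which binds E-boxes with MAX, rose from 19.3 ± 1.57 CPM in vehicle to 33.9 ± 3.78 CPM with RGZ, a log2 fold change of 0.81 (SE 0.11, adjusted p = 0.00461, edgeR). The median of the list was 0.01.

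Among described targets of MondoA or ChREBP other than TXNIP and ARRDC4, which are counted with the members, 0 were called lower. Of 19 listed genes 13 were tested, and for RGZ against vehicle 1 was higher without the block and 3 with it, and 0 were lower in either fit, with 8 of 13 estimates above 0 and a median of 0.04. DESeq2 and limma-voom each called 1. Over all tested genes the edgeR fits called 1.24% without and 9.3% with the block. KLF10, a zinc finger factor, rose by 0.73 (SE 0.10, adjusted p = 0.00554, edgeR), from 39.5 ± 1.56 to 65.4 ± 5.23 CPM. With the block the lipid enzymes SCD, a desaturase, at 0.39 (adjusted p = 1.36e-04, edgeR) and ELOVL6, an elongase, at 0.39 (adjusted p = 0.00258, edgeR) were also called, and SCD without the block had an adjusted p of 0.518 and ELOVL6 one of 0.136. LDHA, HK2 and PFKFB3, glycolytic genes of the list, were at 0.15, -0.08 and -0.11 without the block and were not called for RGZ against vehicle in either fit.

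All 13 genes of the thioredoxin system and of the partners of TXNIP were tested, and 0 were called for RGZ against vehicle without the block, with a median of -0.02 (4 at an unadjusted p under 0.05, 0 by limma-voom and 1, SLC2A1, by DESeq2). With it 1 was higher and 2 were lower: TXN, the thioredoxin that TXNIP binds, at 0.25 (SE 0.06, adjusted p = 0.0173, edgeR), and the glucose transporters SLC2A1 at -0.24 (SE 0.05, adjusted p = 0.0063, edgeR) and SLC2A3 at -0.41 (SE 0.09, adjusted p = 0.0079, edgeR). TXN stood at 469 ± 59.3 CPM in vehicle and 557 ± 54.5 CPM with RGZ, and SLC2A1, which encodes GLUT1, at 313 ± 12.7 and 265 ± 17.1 CPM. Without the block the adjusted p was 0.408 for TXN, 0.151 for SLC2A1 and 0.442 for SLC2A3. The share called over all tested genes was 1.24% without and 9.3% with the block.

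The NEDD4-family ligases and adaptors that alpha-arrestins recruit gave 0 calls of 10 tested in either edgeR fit for RGZ against vehicle, with a median of 0.02 (1 at an unadjusted p under 0.05 without the block, 3 with it, and 0 by DESeq2 and limma-voom), and NEDD4L was at 152 ± 13.8 CPM in vehicle and 156 ± 7.90 CPM with RGZ. Among 10 ESCRT partners and cargo proteins, ITGB4, an integrin subunit that ARRDC3 binds, was for RGZ against vehicle at -0.44 (SE 0.81) without and at -0.45 (SE 0.08, adjusted p = 5.51e-04, edgeR) with the block, on libraries that ranged from 227 to 1566 counts, and its interaction with T007 was called in the blocked fit only (0.54, adjusted p = 0.0447, edgeR). The median of that list for RGZ against vehicle was -0.08. Of 10 kinases and factors described upstream of TXNIP, among them AMPK and AKT subunits, MTOR and FOXO1, 0 were called for RGZ against vehicle in either edgeR fit or by DESeq2 and limma-voom (0 at an unadjusted p under 0.05 without the block and 2 with it), 9 of 10 had a negative estimate and the median was -0.10, and HDAC1 was at -0.04. For RGZ averaged over both antagonist states, the fit with the block called 22.6% of all tested genes. In that fit 2 of 10 upstream genes (MTOR at -0.20 and PRKAA1, an AMPK subunit, at -0.17) and 2 of 10 NEDD4-family genes (WWP2 at -0.17 and SMURF2 at -0.15) were called lower, shares near that of all genes. The other lists had 1 of 5 called among the arrestin-fold relatives, 3 of 8 among the partners of MAX and MLX, 4 of 13 among the targets of MondoA or ChREBP, 5 of 13 in the thioredoxin list and 3 of 10 among ESCRT partners and cargo. RGZ with T007 against RGZ had NEDD4 (-0.30) and NEDD4L (-0.23) called lower with the block, 2 of 10 beside 11.4% of all genes.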

How the data were processed

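The authors extracted RNA from 3 independent experiments on A375 cells, sequenced TruSeq libraries and deposited raw read counts per NCBI gene for 12 libraries, with hg19 named in the submitters' processing notes; the aligner, counter and use of strand are not given in the sources used here. Counts were filtered with filterByExpr (13522 of 23705 genes kept), TMM-scaled and fitted in edgeR 4.0.16 (R 4.3.3) by the quasi-likelihood method on all 12 libraries, with contrasts between the 4 groups and Benjamini-Hochberg adjustment over all tested genes at 0.05. Symbols were matched for 23556 genes.

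The members, lists and tests were chosen with earlier results of these data known. All members are named. From each list, genes called for RGZ against vehicle in either fit are named, otherwise the one with the highest mean CPM, and the 5 genes with the highest and the 5 with the lowest correlation with TXNIP. LDHA, HK2, PFKFB3, VPS26B, ARRB1, ARRB2 and the subunits named as upstream were added as list context after their values were seen.

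The design text gives 3 experiments and the titles number libraries from 1 to 3; that a number marks an experiment was read from both and is not stated. Same-numbered libraries deviated together, with a mean correlation of 0.554 (0.0793 to 0.758), so not every pair shows it by this measure, and the common dispersion was 0.0193 without and 0.00333 with the block. Alternatives were DESeq2 1.42.0, limma-voom (limma 3.58.1), DESeq2 size factors, other filters, fits on the groups compared only, a stricter threshold and leaving out each library. The exact tests used log2 CPM with a prior count of 2. The edgeR script was tested on simulated data. For a simulated RGZ against vehicle, the unblocked fit recovered 57.5% of 200 changed genes with 0 wrong calls. The blocked fit recovered 100% of them with 7 wrong calls. Protein sequences were not used here. For 1 gene of the ESCRT and cargo list the result is not reported here.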

Additional observations from a re-analysis of the deposited data

How the results depend on the processing

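The replicate block moved the count of members called from 0 to 2 for RGZ against vehicle, from 0 to 1 for RGZ with T007 against RGZ, from 0 to 3 for RGZ with T007 against T007 and from 1 to 3 for RGZ averaged over both antagonist states, and changed no other call. Limma-voom with the block gave 2, 1, 2 and 3 in the same order. DESeq2 without the block gave 1 for RGZ against vehicle and 2 for the average, and at an adjusted p under 0.01 the average gave 0. Leaving out 1 library at a time without the block gave 0 to 2 members for the average and 0 in the other comparisons. The 2 members were TXNIP and ARRDC2, without vehicle 2 or RGZ 1. With the block and 1 library left out, the counts were 1 to 2 for RGZ against vehicle, 0 to 2 for RGZ with T007 against RGZ, 1 to 3 for RGZ with T007 against T007, 0 to 2 for RGZ with T007 against vehicle and 3 to 3 for the average. The 2 members called for RGZ with T007 against vehicle were TXNIP and MLXIP, without vehicle 2 or the library of both drugs of experiment 2.

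Of 1015 values of members under alternatives, 968 kept their direction, and of the 47 that did not, 46 came from leaving out a library. ARRDC1 under limma-voom reversed to 0.00159 for the average. With a library left out, ARRDC1 ranged from -0.17 to 0.17 for RGZ against vehicle, -0.0792 to 0.0902 for the average, -0.0927 to 0.16 for RGZ with T007 against T007, -0.0280 to 0.31 for T007 against vehicle and -0.15 to 0.19 for the interaction. ARRDC2 ranged from -0.00494 to 0.17 for RGZ with T007 against vehicle and from -0.13 to 0.10 for the interaction. ARRDC3 ranged from -0.0416 to 0.11 for RGZ with T007 against RGZ, -0.0686 to 0.0910 for T007 against vehicle and -0.0685 to 0.12 for the interaction. ARRDC4 ranged from -0.37 to 0.10 for RGZ with T007 against RGZ and from -0.20 to 0.28 for the interaction. MLX ranged from -0.0307 to 0.0609 for RGZ with T007 against vehicle, MLXIP from -0.00181 to 0.26 for T007 against vehicle and the TXNIP interaction from -0.0226 to 0.34. The cause was not tested.

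The genes called over the whole table differed too. RGZ against vehicle called 167 genes, 302 by DESeq2 and 1258 with the block, RGZ with T007 against RGZ called 167, 313 and 1545, RGZ with T007 against T007 5, 87 and 1185, T007 against vehicle 1, 21 and 123, the interaction 0, 1 and 38 and the average 344, 771 and 3052. Limma-voom with the block called 1220, 1466, 1009, 109, 21 and 2925 in that order, and without a filter RGZ with T007 against T007 called 10 and T007 against vehicle 3. Depth limits MLXIPL (1 to 9 counts) and ARRDC4 (12 to 42 counts), and intervals cover the spread between experiments of 1 line only.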

Other observations

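With libraries grouped by the number in their titles, experiment accounted for 92.7% of the variance of TXNIP within conditions and 91.4% of that of ARRDC1, 75.9% for ARRDC3, 62.3% for MLXIP, 55.6% for MLX, 55.4% for ARRDC2 and 48.7% for ARRDC4, where 25% is the average with no difference between experiments. TXNIP in experiment 3 stood 0.34 below its condition means on the log2 scale (mean deviation -0.34), ARRDC1 in experiment 2 stood 0.27 above its own, and ARRDC4 was -0.27 in experiment 2 and 0.24 in experiment 3. Of 7 melanocytic markers 4 were tested, and for RGZ against vehicle 2 were called lower with the block and 0 without it: S100B was at -1.02 (adjusted p = 3.73e-05, edgeR) and MITF at -0.34 (adjusted p = 0.00997, edgeR), with adjusted p of 0.58 and 0.731 without the block. SOX10 was at -0.14 and PMEL at -0.66 and did not pass either test. The fit with the block called 9.3% of all tested genes for RGZ against vehicle. The part of these differences in the results for TXNIP was not tested.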
